A study of Danio rerio with 63 samples.

Results

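Naive zebrafish (Danio rerio) explants were followed from sphere stage to 30% epiboly, the interval in which zygotic transcripts begin to replace those laid down by the mother. The comparison used 6 of the 63 libraries of the series, chosen by condition and stage alone: 3 from uninjected explants at sphere (4 hours post fertilization, hpf) and 3 from uninjected explants at 30% epiboly (4.7 hpf), lettered A to C at each stage. Explants are pieces of embryo cut at about 3 hpf and kept in explant medium until collection, and polyadenylated RNA was sequenced. The labels give 3 biological replicates per group and no strain or number of explants per library. The rest of the series holds uninjected explants at 5 later stages, up to 11 hpf, and explants whose embryos received mRNA at the 1-cell stage, either 10 pg for ndr2, a Nodal ligand, or 0.5 pg for CA-acvr1b*, an active Nodal receptor, at all 7 stages. The uninjected explants received no mRNA, and explants of all conditions share the isolation and the culture.

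An early fish embryo runs on maternal RNA. At the mid-blastula transition, maternal Pou5f3, Nanog and SoxB1 proteins open the zygotic genome, and maternal transcripts are then degraded, in part through zygotic microRNAs and in part through their codon content. At the same time the outermost cells become the enveloping layer, a tight epithelium that covers the blastoderm during epiboly.

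The 6 libraries held 14832699 to 17577921 counts each, and 17466 to 19939 genes had at least 1 count. Values below are CPM, counts scaled to library size with TMM factors, given per library or as a stated mean or sum. Values after ± are SEs of log2 fold changes from the fit, not SDs over libraries. CPM are not divided by transcript length, so a gene's level is given across libraries and not set against that of another gene. Of 5 blastoderm markers epcam had at most 1 count in any of the 6 libraries, and the 5 summed to between 4516 and 6857 CPM. Among them pou5f3 was counted at 2025, 1966 and 1449 CPM in sphere A, B and C and at 3352, 3262 and 2344 CPM at 30% epiboly. The E-cadherin gene cdh1 was at 625, 630 and 542 CPM and then at 782, 664 and 552 CPM, with overlapping stages, and was not called. The marker sox19b fell from 256, 419 and 827 CPM to 95.2, 100.5 and 173 CPM, while nanog, like cdh1, overlapped between the stages. Of 7 yolk syncytial layer markers, 4 had at most 3 counts in any of the 6 libraries, and the 7 summed to between 0.334 and 2.36 CPM. The 7 germ cell markers summed to between 362 and 405 CPM. Among the margin markers ndr1 and gsc, and among the yolk markers mxtx2, are listed at 0 in all 63 libraries, including those with added Nodal signal, so these 3 genes carry no information here.

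Libraries of the same stage differed in the genes of the step. A progress index was formed for each library from genes that changed at least 2-fold in both injected conditions, as the mean log2 CPM of 1563 risen genes minus that of 874 fallen genes, so that the steps of the injected explants chose the genes, although the uninjected libraries shared the filter, scaling and dispersions of the fit that called them. At sphere the index was -2.49 in replicate A, -3.82 in B and -5.17 in C. At 30% epiboly it was 0.19 in A, -0.50 in B and -1.48 in C. Replicate A had the highest index and C the lowest at both stages, and the stages did not overlap. The difference between the stage means was 3.23, and its exact two-sided permutation p of 0.1 is the smallest that 3 against 3 can give. Across 19069 genes, which are not independent, sphere A correlated more closely with 30% epiboly C (Pearson r = 0.977) than with sphere B (0.965) or sphere C (0.958). Of the genes called as risen, 39.4% had the order A, B, C from highest to lowest at both stages, against 11.9% of all genes tested. Of the fallen genes, 46.1% had the order C, B, A at both stages, against 7.97% of all genes tested. A difference in exact stage, in explant make-up and in handling between the lettered series cannot be told apart here.

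**Figure D1:**
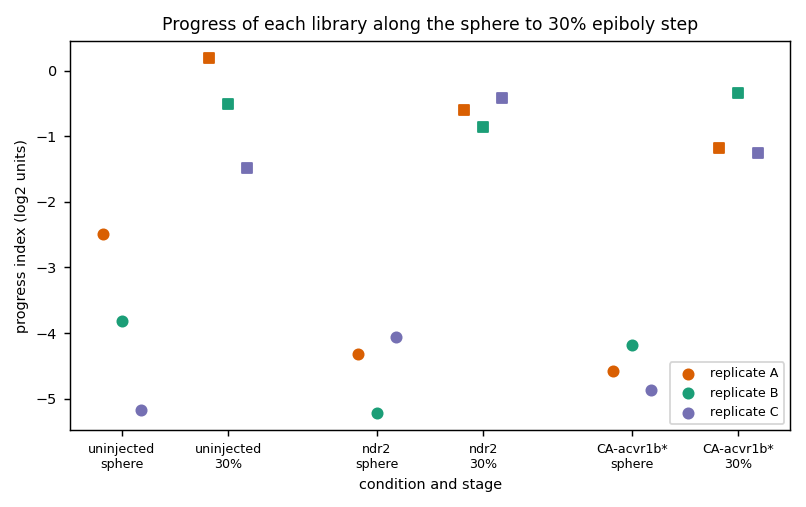
Progress index of each library (vertical axis, log2 units) at sphere and 30% epiboly in the 3 conditions, with the lettered replicates marked. The index genes were chosen by the steps of the injected explants, so injected and uninjected values are not on equal terms. In uninjected explants the index ran from -5.17 to -2.49 at sphere and from -1.48 to 0.19 at 30% epiboly, with A above B and B above C at both stages.

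The transcriptome changed widely between 4 and 4.7 hpf. Of 19069 genes tested 5215 were called (27.3%): 3246 rose (17.0%) and 1969 fell (10.3%) at an adjusted p under 0.05 (edgeR's quasi-likelihood test with Benjamini-Hochberg adjustment). At least 2-fold rises were made by 1748 genes (9.17%) and at least 2-fold falls by 933 (4.89%). All 30% libraries lay above all sphere libraries in 4102 of the genes tested (21.5%) and below them in 3258 (17.1%). Stages without overlap, as given for single genes below, were thus common. Rises of at least 8-fold numbered 378 and falls of that size 23, so the largest changes were mostly rises. The median log2 fold change of all genes tested was 0.09. Scaled by library totals alone, that median shifted by -0.164 and the calls became 2320 risen and 2762 fallen, so the balance of rises and falls depends on the scaling. Pairing the 6 libraries by letter gave 2762 risen and 3141 fallen genes, and 4380 of the 5215 calls were shared between the fits. With the letter as a block in the fit of all 63 libraries 3435 genes rose and 2121 fell, and every gene whose adjusted p or change on the log2 scale is given below was on the same side of the threshold as without the block. Below, paired refers to the fit of the 6 libraries alone, and its adjusted p is given wherever it differs in call, in either direction. Genes given only with the block in the fit of all 63 libraries are the exception, and no paired values are given for them. Counts of list members in the paired fit stand against its 2762 risen and 3141 fallen genes of 19069.

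Single libraries also moved the counts. Without sphere C, 2179 genes rose and 1005 fell, and without 30% epiboly A, 2252 rose and 1174 fell. Without sphere A, 3753 rose and 2093 fell. Fitted alone and without pairing, the 6 libraries gave 810 risen and 1179 fallen genes. The genes that fell at least 2-fold took 4.65%, 6.76% and 9.57% of the counts in sphere A, B and C and 1.80%, 2.22% and 3.43% at 30% epiboly. Those that rose at least 2-fold took 5.83%, 3.74% and 2.41% and then 12.8%, 9.95% and 7.82%. Both sets were chosen for their change, so these shares only describe its size. Falls were rare among genes with a mean under 1 CPM (0.437% of 5717) and more frequent between 10 and 100 CPM (23.2% of 5864), and rises made up 6.02% and 19.5% of the same bins. Between 1 and 10 CPM 17.1% rose and 4.49% fell, and over 100 CPM 39.3% rose and 15.9% fell. The gene lists below were not matched for level, so their shares stand against all genes and not against genes of like level. Lists and members were also chosen with earlier results of these data known, so a list's share describes it and is not a test.

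**Figure D2:**
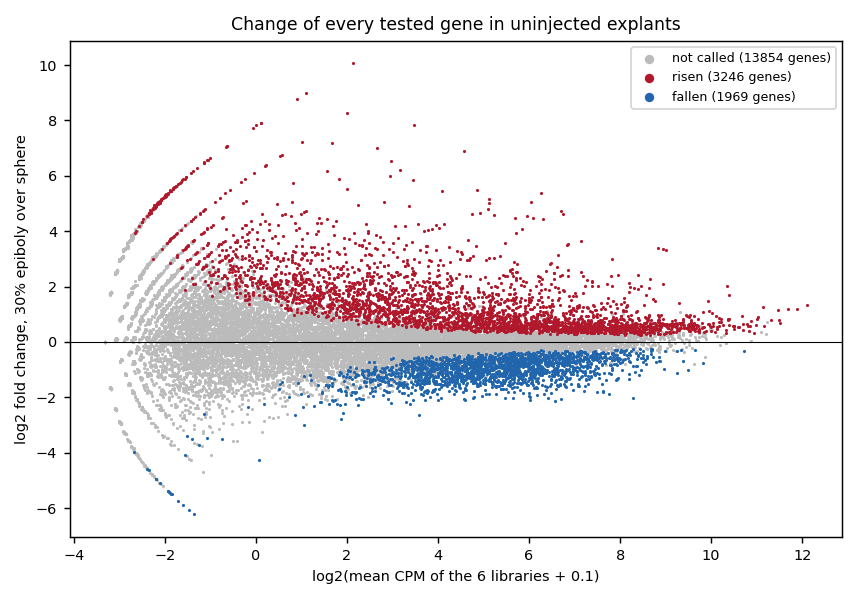
Log2 fold change from sphere to 30% epiboly (vertical axis) against mean level in log2 CPM (horizontal axis), 1 point per tested gene. The 3246 risen genes reach larger changes than the 1969 fallen genes.

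Genes of the enveloping layer and epidermis had the highest median of the lists tested. Of 30 tested, 22 rose (73.3%) and 0 fell, against 17.0% and 10.3% of all genes. The median log2 fold change was 2.51 against 0.09 for all genes. Taken within a letter, the median was 2.57 in A, 2.3 in B and 2.62 in C. In the paired fit 12 rose, without 30% epiboly A 18 and without sphere C 21.

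Keratins form the intermediate filaments of this layer. krt4 was counted at 208, 49.7 and 2.41 CPM in sphere A, B and C and at 1474, 839 and 383 CPM in the same letters at 30% epiboly (log2 fold change 3.37 ± 0.68, SE, adjusted p = 0.000156). krt8 went from 224, 48.5 and 5.95 CPM to 1426, 895 and 485 CPM (log2 fold change 3.33 ± 0.58, adjusted p = 1.93e-05). Sphere C was the lowest library and 30% epiboly A the highest for both, and the stages did not overlap. krt92 went from 22.8, 2.23 and 0.462 CPM to 374, 181 and 64.7 CPM, a log2 fold change of 4.62 ± 0.68. For these 3 keratins the ratio within a letter was largest in C, and the paired fit called none of them (adjusted p = 0.165 for krt4, 0.134 for krt8 and 0.0595 for krt92), with log2 fold changes of 4.35, 4.22 and 5.34. With the block in the fit of all 63 libraries they were 3.71 (adjusted p = 1.01e-05), 3.61 (3.48e-06) and 4.84 (9.75e-08). cyt1, a type I keratin, rose from 1.67, 0.582 and 0.0513 CPM to 76.9, 16.8 and 4.77 CPM and was called in both fits (adjusted p = 3.22e-07, paired 4.27e-07). Without sphere A the log2 fold change was 5.10 for krt4, 5.10 for krt8, 7.24 for krt92 and 6.63 for cyt1, and without 30% epiboly A it was 3.87 for krt92 and 3.82 for cyt1.

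Other members of the list code for proteins of junctions and of the cell cortex. evpla, an envoplakin, was at 10.7, 0.485 and 0 CPM at sphere and at 332, 80.2 and 37.8 CPM at 30% epiboly (log2 fold change 5.36 ± 0.67, adjusted p = 6.16e-08, paired 0.0557). Its partner ppl, a periplakin, was at 53.9, 44.9 and 44.8 CPM and then at 330.4, 117 and 61.9 CPM (adjusted p = 7.7e-06, paired 0.276). The sphere libraries were even for ppl and uneven for evpla, and neither gene's stages overlapped. cldnf, a claudin of tight junctions, rose from 3.06, 1.26 and 0.513 CPM to 27.4, 16.5 and 9.84 CPM (log2 fold change 3.49 ± 0.36, adjusted p = 1.63e-09) and was called in every fit tried. Its relative cldne rose by 2.41 ± 0.36 on the log2 scale (adjusted p = 1.49e-06, paired 0.0917). The desmosomal plakophilin pkp3a and the calpain capn9 rose by 4.19 ± 0.50 and 4.47 ± 0.53 and were called in the paired fit too. Single libraries moved these sizes: without sphere A the log2 fold change was 9.19 for evpla, 4.31 for cldnf, 3.28 for cldne, 6.41 for pkp3a and 6.39 for capn9. Without 30% epiboly A it was 4.02 for evpla, 0.90 for ppl, 3.23 for pkp3a and 3.58 for capn9, and without sphere C 4.77 for evpla.

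Among transcription factors of this layer, the grainyhead genes rose and klf17 was not called. grhl1, a grainyhead factor, rose from 73.7, 21.2 and 2.46 CPM to 229, 140.1 and 98.5 CPM (log2 fold change 2.27 ± 0.48, adjusted p = 0.000286, paired 0.206). grhl3 rose by 1.21 ± 0.38 (adjusted p = 0.0129), a call lost without sphere B (0.0695), sphere C (0.147) or 30% epiboly A (0.0628) and in the paired fit (0.164). Without sphere A the log2 fold change was 3.71 for grhl1 and 1.87 for grhl3. klf17 was at 285, 303 and 278 CPM and then at 430, 299 and 242 CPM, with overlapping stages (adjusted p = 0.533). The summed level of 10 enveloping layer markers, most of them members of this list, was 369 to 1146 CPM at sphere and 1733 to 4780 CPM at 30% epiboly, without overlap. In bulk RNA, more cells of a type and more RNA per cell cannot be told apart.

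**Figure D3:**
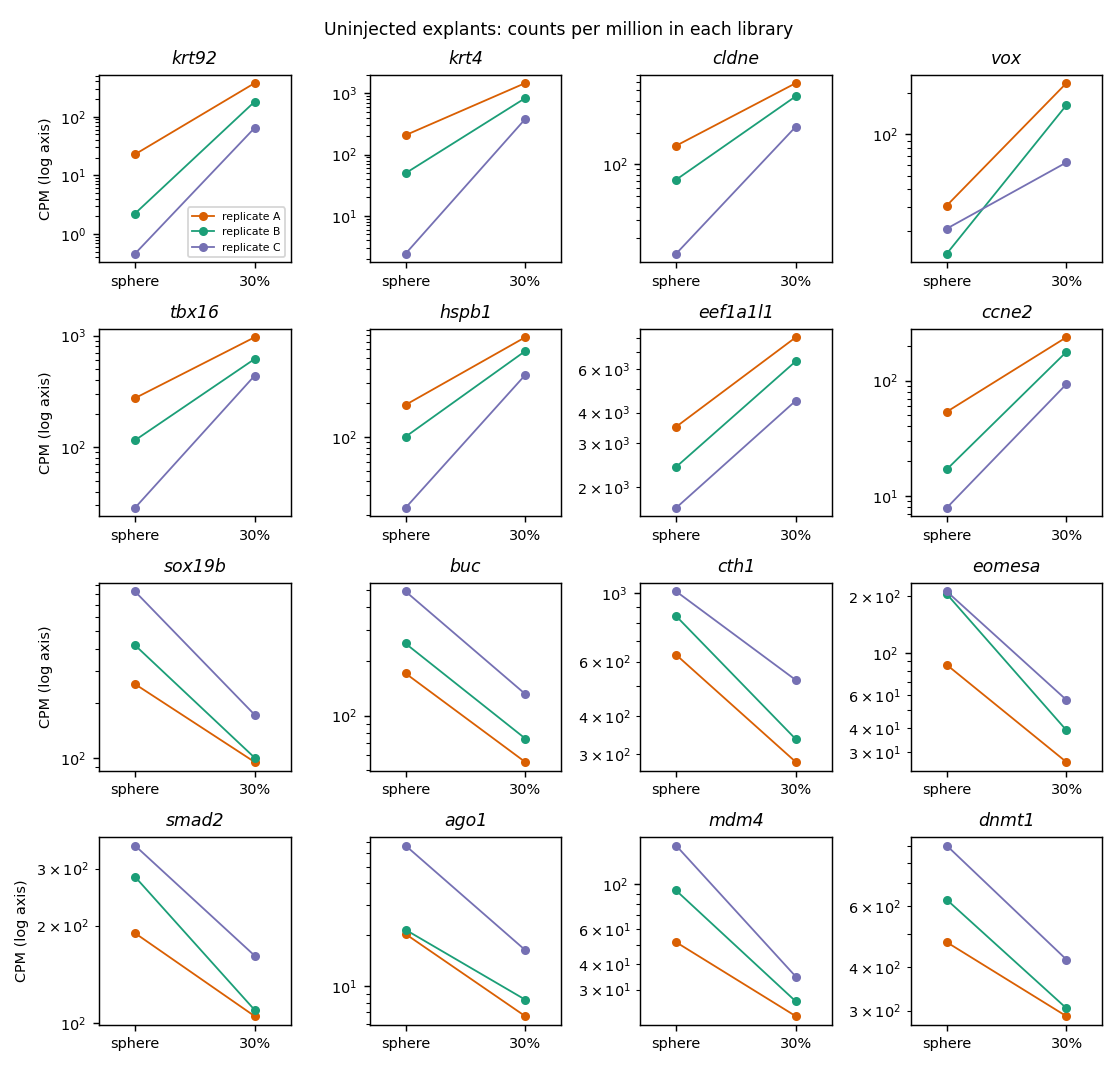
Level in CPM (log axes, each panel with its own range) of 16 genes in the 6 libraries, with lines joining libraries of the same letter. Rising genes are in the upper 8 panels, where replicate A is the highest at each stage, and falling genes in the lower 8, where C is the highest at each stage.

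The largest rises were of genes barely counted at sphere. zgc:110333 was at 0.278, 0 and 0 CPM and then at 45.2, 14.6 and 5.61 CPM (adjusted p = 2.58e-11). b3gnt5a, a glycosyltransferase of glycolipids, went from 1.22, 0 and 0 CPM to 112, 22.8 and 5.71 CPM (adjusted p = 8.51e-09). Only genes without overlap of the stages were eligible as largest rises, so every 30% library was above every sphere library by that choice. In both genes 30% epiboly A was the highest. The potassium channel gene kcnk1a rose from 2.78, 0.825 and 0.205 CPM to 114, 42.2 and 14.1 CPM, a log2 fold change of 5.50 ± 0.49 that was 6.74 without sphere A and 4.49 without 30% epiboly A. Of all risen genes 188 had no sphere library above 3 counts, and 22 fallen genes had no 30% library above 3 counts. Most of these genes were close to the detection floor. Only 4 of the 188 averaged at least 5 CPM at 30% epiboly, and the 22 averaged at most 0.689 CPM at sphere.

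Genes known as early zygotic transcripts rose more often than the background of 17.0%. Of 34 tested, 15 rose (44.1%) and 2 fell (5.88%, against 10.3% of all genes), with a median log2 fold change of 1.08. In the paired fit 10 rose and 3 fell, and without sphere C 9 rose and 0 fell. vox, a ventral repressor of dorsal genes, was at 30.5, 13.7 and 20.8 CPM and then at 235, 163 and 62.7 CPM (log2 fold change 2.83 ± 0.31, adjusted p = 4.04e-09, paired 0.0845). vent, with the same role, went from 3.67, 5.39 and 2.82 CPM to 71.3, 34.7 and 10.4 CPM (log2 fold change 3.28 ± 0.52, adjusted p = 3.84e-06, paired 0.0539). For both genes the libraries lay further apart at 30% epiboly than at sphere, without overlap of the stages. The related ved rose by 2.41 ± 0.50 (adjusted p = 0.000214, paired 0.0477), and by 3.51 without sphere A, while vent rose by 2.5 without 30% epiboly A.

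The T-box factor tbx16 was counted at 274, 115 and 28.5 CPM and then at 965, 617 and 438 CPM (log2 fold change 2.27 ± 0.62, adjusted p = 0.00427). Its call was lost without sphere C (0.0511) and in the paired fit (0.114), and without sphere A the log2 fold change was 3.23. apoeb, an apolipoprotein, rose from 179, 119 and 60.2 CPM to 602, 489.5 and 326 CPM (adjusted p = 1.54e-05) and was called in every fit tried. The small heat-shock protein gene hspb1 went from 192, 99.9 and 23.2 CPM to 769.6, 579.6 and 355 CPM (log2 fold change 2.44 ± 0.37, adjusted p = 2.01e-06, paired 0.0893, log2 fold change 3.21 without sphere A). In these 3 genes A was the highest and C the lowest at each stage. otx1, a homeobox gene, fell from 95.2, 117 and 207 CPM to 32.3, 47.3 and 81.5 CPM (adjusted p = 0.013), a call lost without sphere C (0.151), 30% epiboly A (0.109) or 30% epiboly B (0.0577).

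BMP signals pattern the ventral side and favour epidermis over neural fate. Of 40 tested genes of this pathway 13 rose (32.5%) and 1 fell (2.5%), against 17.0% and 10.3% of all genes. Their median log2 fold change was 0.79, and in the paired fit 9 rose and 2 fell. The ligand gene bmp7a went from 73.6, 22.3 and 3.28 CPM to 225, 168 and 142 CPM (log2 fold change 2.44 ± 0.57, adjusted p = 0.000906, paired 0.211, log2 fold change 3.80 without sphere A). bambia, a pseudoreceptor that dampens the signal, rose from 59.1, 35.9 and 26.3 CPM to 241, 142 and 89.8 CPM (adjusted p = 0.000197). id1, a direct target, rose from 28.8, 16.9 and 15.8 CPM to 63.2, 52.6 and 32.5 CPM (adjusted p = 0.00028). None of the 3 overlapped between stages, and the calls of bambia and id1 held in every fit tried. The epidermal factor gene tfap2c rose by 2.61 ± 0.52 (adjusted p = 0.000147), and by 3.43 without sphere A and 1.90 without 30% epiboly A. The single fall was id3, from 14.9, 17.9 and 18.6 CPM to 10.1, 9.51 and 12.5 CPM (adjusted p = 0.0485), a call lost without sphere B (0.115), sphere C (0.161), 30% epiboly A (0.148) or 30% epiboly B (0.159).

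In the FGF pathway 9 of 23 tested genes rose (39.1%) and 2 fell (8.7%), against 17.0% and 10.3% of all genes. In the paired fit 5 rose and 1 fell. The list's median log2 fold change was 0.83, and 0.09 without 30% epiboly A. The receptor gene fgfr1b rose from 30.6, 9.65 and 23.5 CPM to 108, 72.4 and 58.5 CPM (adjusted p = 4.65e-08). Another receptor gene, fgfr4, rose by 1.44 ± 0.26 (adjusted p = 3.89e-05, paired 0.0649). spry2, a feedback inhibitor, rose from 4.95, 3.15 and 2.31 CPM to 17.4, 10.8 and 6.54 CPM (adjusted p = 0.00116). il17rd, an antagonist of the same pathway, fell from 108, 147 and 150.4 CPM to 48.1, 61.0 and 83.8 CPM (log2 fold change -1.07 ± 0.22, adjusted p = 0.000143). The stages did not overlap for either inhibitor, and the directions were opposite.

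**Figure D4:**
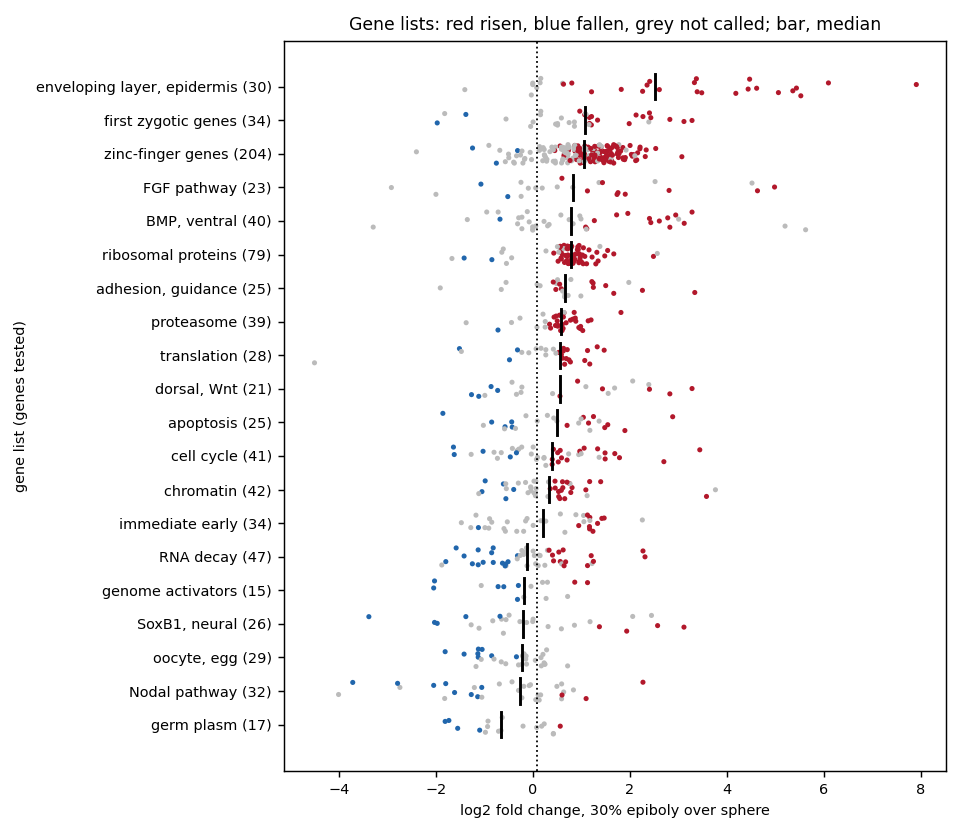
Log2 fold change from sphere to 30% epiboly (horizontal axis) of every tested member of 20 of the gene lists (vertical axis; the yolk layer list, with a median of 0.69, is not drawn), coloured by call, with each list's median marked. The dotted line is the median of all genes, 0.09; enveloping layer genes have the highest median, 2.51, and germ plasm genes the lowest, -0.65.

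Genes listed for zygotic genome activation, not all of which code for factors that open the genome, did not move together. Of 15 tested, 2 rose (13.3%) and 6 fell (40%), against 17.0% and 10.3% of all genes, with a median log2 fold change of -0.18. sox19b, the maternal SoxB1 factor, was counted at 256, 419 and 827 CPM in sphere A, B and C and at 95.2, 100.5 and 173 CPM at 30% epiboly (log2 fold change -2.03 ± 0.26, adjusted p = 7.96e-08). C was the highest library at each stage, and the stages did not overlap. The zygotic SoxB1 gene sox19a is not in this list. It moved the other way from sox19b, from 209, 132 and 59.9 CPM to 429, 343 and 270 CPM (log2 fold change 1.37 ± 0.30, adjusted p = 0.000375). pou5f3, whose values are given above, had a log2 fold change of 0.72 ± 0.32 without overlap of the stages. It was not called (adjusted p = 0.0959), whereas the paired fit called it (log2 fold change 0.65, adjusted p = 5.8e-06) and the block in the fit of all 63 libraries did not (adjusted p = 0.0785).

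nanog was at 2443, 2229 and 1698 CPM and then at 2149, 2830.4 and 2728 CPM, with overlapping stages (adjusted p = 0.569). eomesa, a maternal T-box factor, fell from 86.4, 205 and 211 CPM to 26.5, 38.9 and 56.3 CPM (log2 fold change -2.04 ± 0.36, adjusted p = 2.08e-05). Sphere A was well below the other sphere libraries for eomesa, but above every 30% library. The acetyltransferase gene ep300b fell by 0.71 ± 0.17 (adjusted p = 0.001). The insulator protein gene ctcf rose by 0.87 ± 0.15 (adjusted p = 1.6e-05) and the mRNA-binding protein gene ybx1 by 1.13 ± 0.21 (adjusted p = 4.46e-05).

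Oocyte and germ plasm transcripts held more falls than rises. Of 29 tested oocyte and egg genes 8 fell and 0 rose (median log2 fold change -0.23), and of 17 germ plasm genes 4 fell and 1 rose (median -0.65), falls of 27.6% and 23.5% against 10.3% of all genes. Falls made up 23.2% of all genes between 10 and 100 CPM and 15.9% of those over 100 CPM, and the lists were not matched for level. In the paired fit the falls numbered 14 and 10, and without sphere C 3 and 2, while the falls over all genes numbered 3141 and 1005 in these fits against 1969. buc, which organizes the Balbiani body of the oocyte and the germ plasm and is in both lists, fell from 172, 252 and 490.5 CPM to 55.1, 74.4 and 132 CPM (log2 fold change -1.81 ± 0.43, adjusted p = 0.00108). cth1, a zinc-finger RNA-binding protein of the egg, fell from 632, 844 and 1014 CPM to 283, 336 and 523 CPM (adjusted p = 0.00541, and 0.0564 without 30% epiboly A, a call also lost without replicate B at both stages). In both genes sphere C was the highest library and 30% epiboly A the lowest, and the stages did not overlap. Because polyadenylated RNA was sequenced, loss of a message and shortening of its tail cannot be told apart.

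rgs14a, a regulator of G protein signalling, fell from 27.7, 43.5 and 64.5 CPM to 14.2, 12.2 and 20 CPM (adjusted p = 0.00116). tdrd7a, a Tudor protein of germ granules, was at 74.3, 102 and 111 CPM and then at 39.9, 49.1 and 57.1 CPM (adjusted p = 0.128, paired 3.16e-05). nanos3, a translational repressor of germ cells, was at 15.8, 8.30 and 15 CPM and then at 6.65, 6.47 and 7.48 CPM (adjusted p = 0.453, paired 0.00857). tdrd7a and nanos3 were thus lower at 30% epiboly in each letter and passed the test in the paired fit of the 6 libraries, but not with the block in the fit of all 63 (adjusted p = 0.11 and 0.405). ddx4, the vasa helicase, was at 163, 124 and 146 CPM and then at 199, 199.9 and 182 CPM (adjusted p = 0.324, paired 0.0105), higher at 30% epiboly in each letter, with 0.314 for the block in all 63 libraries. The linker histone gene h1m of the egg was at 977, 1057 and 1269.8 CPM and then at 556, 807 and 883 CPM (adjusted p = 0.344, paired 4.54e-05, and 0.0939 with the block in all 63 libraries).

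Genes of RNA decay and translational control included rises and falls. Of 47 tested, 13 rose (27.7%) and 15 fell (31.9%), against 17.0% and 10.3% of all genes, with a median log2 fold change of -0.12. Argonaute proteins carry microRNAs. ago1 fell from 20.2, 21.4 and 66.8 CPM to 6.65, 8.31 and 16.2 CPM (log2 fold change -1.79 ± 0.30, adjusted p = 7.15e-06, log2 fold change -0.99 without sphere C). ago3a fell from 49.4, 55.6 and 111 CPM to 18.7, 20.4 and 33.0 CPM (log2 fold change -1.58 ± 0.28, adjusted p = 1.7e-05). Sphere C stood far above the other libraries for both genes, and the stages did not overlap. ago2 was at 171, 140.1 and 219 CPM and then at 136, 124 and 183 CPM, with overlap (adjusted p = 0.273, paired 0.0142, and 0.17 with the block in all 63 libraries). The deadenylase genes pan2 and parn fell by 0.82 ± 0.12 and 0.62 ± 0.13. btg1, an adaptor of deadenylases, rose by 1.21 ± 0.22 (adjusted p = 3.2e-05), and the mRNA-binding protein genes igf2bp1 and elavl1a, whose products stabilize messages, rose by 1.25 ± 0.16 and 0.68 ± 0.10. With the block in the fit of all 63 libraries, cnot3a, zfp36l1b and dcp2 of RNA decay also rose, by 0.63, 2.29 and 0.65. In that fit tob1b and igf2bp3 fell by 0.53 and 0.32. Without the block, their calls were lost in 3 and 4 of the fits that left out 1 library.

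Genes of the protein synthesis machinery rose by small amounts. The symbol pattern for ribosomal proteins matched 79 tested genes, of which 64 rose (81%) and 2 fell (2.53%), against 17.0% and 10.3% of all genes. Their median log2 fold change was 0.79. The falls were rps6kc1 and rps6ka4, which are among 7 matched genes of S6 kinases and not of ribosomal proteins. Of the other 72 genes 64 rose and 0 fell. Scaled by library totals alone, 53 of the matched genes rose and 4 fell, with a median of 0.58. rplp0, of the ribosomal stalk, went from 128, 89.6 and 62.9 CPM to 297, 215 and 142 CPM (log2 fold change 1.22 ± 0.21, adjusted p = 8.67e-06). rpl3 went from 267, 248 and 202 CPM to 407, 401 and 320.4 CPM (log2 fold change 0.66 ± 0.12, adjusted p = 4.75e-05). The stages did not overlap for either gene.

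Of 28 tested genes of translation and nucleolus 15 rose (53.6%) and 3 fell (10.7%), against 17.0% and 10.3% of all genes. The elongation factor gene eef1a1l1 went from 3503, 2409.6 and 1646 CPM to 8069, 6456 and 4472 CPM (log2 fold change 1.33 ± 0.18, adjusted p = 1.41e-07). eif4ebp2, a repressor of cap-dependent translation, fell from 177, 288 and 397 CPM to 78.4, 87.3 and 136 CPM (log2 fold change -1.51 ± 0.18, adjusted p = 1.17e-08). The stages did not overlap for either gene, and the libraries of a stage spread by more than the gap between the stages. Nucleolin, ncl, rose by 0.78 ± 0.11. Of 39 proteasome genes 28 rose (71.8%, against 17.0% of all genes), among them psma4 (0.99 ± 0.16) and psmd13 (0.98 ± 0.15). The single fall (2.56%, against 10.3% of all genes) was psmd11a (-0.72 ± 0.14).

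Other messages with many counts that rose at least 2-fold included khdrbs1a, a splicing regulator, which went from 3307, 1909.9 and 1689.7 CPM to 6453, 5211 and 3993 CPM (adjusted p = 1.27e-08). hmga1a, an architectural chromatin protein, rose from 2699.9, 1976 and 1372 CPM to 5771, 4497 and 3376 CPM (adjusted p = 6.59e-08). The scaffold gene akap12b rose from 957, 457 and 131 CPM to 2559.6, 2100.5 and 1565 CPM (log2 fold change 2.01 ± 0.33, adjusted p = 6.52e-06, paired 0.14, log2 fold change 2.82 without sphere A). In these 3 genes sphere A was the highest sphere library. It lay below every 30% library by choice, because only genes without overlap of the stages were eligible.

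Zinc-finger genes with 4-digit symbols form a large family in zebrafish. Of 204 tested, 106 rose (52%) and 3 fell (1.47%), against 17.0% and 10.3% of all genes. The median log2 fold change was 1.07, and 90 of the 204 rose in all 3 conditions, against 2381 of the 19069 genes tested. The median member had 2.55 CPM at sphere and 5.76 CPM at 30% epiboly, and 143 had under 10 CPM at 30% epiboly. The rises numbered 57 without sphere C, 123 without sphere A and 86 in the paired fit. znf1065 was at 149.6, 82.7 and 24.4 CPM and then at 223, 216 and 169 CPM (log2 fold change 1.25 ± 0.33, adjusted p = 0.00283, paired 0.251, log2 fold change 1.92 without sphere A). znf1028 fell from 24.3, 22.6 and 39.2 CPM to 11.9, 8.94 and 15.4 CPM (adjusted p = 0.000273). Some members are near-identical and how shared reads were counted is not given in the sources used here, so values of single members are uncertain.

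Among DNA methyltransferases the maintenance enzyme gene moved in the opposite direction to the de novo enzyme genes dnmt3ba and dnmt3bb.2. dnmt1, the maintenance enzyme, fell from 473, 628 and 901 CPM to 289, 304 and 421 CPM (log2 fold change -0.98 ± 0.16, adjusted p = 5.96e-06). The de novo enzyme genes dnmt3ba and dnmt3bb.2 rose by 0.76 ± 0.12 (adjusted p = 1.34e-06) and 0.78 ± 0.12 (adjusted p = 1.57e-06). The replacement histone gene h3f3a rose by 1.10 ± 0.16 and the Polycomb gene suz12a fell by 0.61 ± 0.11. Of 42 tested chromatin genes 18 rose (42.9%) and 5 fell (11.9%), against 17.0% and 10.3% of all genes, with a median log2 fold change of 0.34. These shares were near those of all genes over 100 CPM (39.3% and 15.9%), and the list was not matched for level.

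Of 41 tested cell cycle genes 17 rose (41.5%) and 5 fell (12.2%), against 17.0% and 10.3% of all genes, with 9 falls in the paired fit. Of all genes over 100 CPM 39.3% rose and 15.9% fell, and the list was not matched for level. ccnb2, a mitotic cyclin, fell from 649, 964 and 1265 CPM to 371, 465 and 578 CPM (log2 fold change -1.02 ± 0.15, adjusted p = 8.41e-07). ccne2, a cyclin of the G1 to S transition, rose from 53.6, 16.9 and 7.85 CPM to 238, 178 and 93.4 CPM (log2 fold change 2.70 ± 0.37, adjusted p = 3.57e-07, log2 fold change 3.77 without sphere A). ccnd1, a G1 cyclin, rose from 838, 536 and 171 CPM to 1662, 1464 and 1226 CPM (adjusted p = 0.000801, paired 0.182). None of the 3 cyclins overlapped between stages. The inhibitor gene cdkn1ba rose from 0.445, 0.243 and 0.462 CPM to 7.24, 3.93 and 1.57 CPM (log2 fold change 3.44 ± 0.44, adjusted p = 4.02e-08, and 2.81 on the log2 scale without 30% epiboly A). The checkpoint kinase genes atr and atm fell by 1.63 ± 0.32 and 1.62 ± 0.31, and without sphere C the log2 fold change of atm was -0.86. mdm4 fell from 51.6, 93.2 and 156 CPM to 22.1, 26.2 and 34.8 CPM (log2 fold change -1.85 ± 0.23, adjusted p = 2.15e-08). Of 25 apoptosis genes 8 rose (32%) and 5 fell (20%), against 17.0% and 10.3% of all genes.

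The Nodal pathway was measured here without added ligand. Of 32 tested components and targets 3 rose (9.38%) and 8 fell (25%), against 17.0% and 10.3% of all genes. Their median log2 fold change was -0.26, and without sphere C 2 rose and 4 fell. The ligand gene ndr2 was at 0.724, 0 and 0.770 CPM and then at 0.297, 0.381 and 1.53 CPM (adjusted p = 0.589). The receptor gene acvr1ba was at 288, 267 and 267 CPM and then at 272, 309.9 and 277 CPM (adjusted p = 0.854). Both overlapped between stages, and ndr2 was near the detection floor of 3 counts. The receptor gene acvr2aa fell by 1.05 ± 0.18 (adjusted p = 6.33e-06), and the co-receptor gene tdgf1 rose from 226, 168 and 127 CPM to 370.2, 429 and 318 CPM (adjusted p = 0.00221, a call lost without replicate B at both stages).

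The transducer smad2 fell from 189.6, 283 and 353 CPM to 105, 109.7 and 161 CPM without overlap (log2 fold change -1.14 ± 0.15, adjusted p = 1.19e-07). Its nuclear partner foxh1 was at 407, 453 and 428 CPM and then at 419, 350.2 and 364 CPM, with overlap (adjusted p = 0.482). The target lft1 was at 0.278, 0.776 and 3.08 CPM and then at 0.297, 0.571 and 1.08 CPM (adjusted p = 0.407). The mesodermal T-box gene tbxta was at 2.06, 5.72 and 10.9 CPM and then at 0.712, 0.698 and 1.23 CPM (log2 fold change -2.79 ± 1.00, adjusted p = 0.0323). Its call was lost without any of 5 of the 6 libraries, sphere A being the exception, with an adjusted p of 0.0517 without sphere B, 0.212 without sphere C, where the log2 fold change was -2.11, and 0.114, 0.0982 and 0.0552 without 30% epiboly A, B and C.

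In the canonical Wnt pathway, which sets up the dorsal side, the destruction complex genes axin1 and apc fell by 0.86 ± 0.11 (adjusted p = 6.44e-08) and 0.72 ± 0.11 (adjusted p = 6.2e-07). The beta-catenin gene ctnnb1 rose by 0.93 ± 0.14 (adjusted p = 5.64e-07). With the block in the fit of all 63 libraries, the transcription factor gene lef1 and the pathway target axin2 fell by 1.27 and 1.08. Without the block, the call of lef1 was lost without sphere C, 30% epiboly A or 30% epiboly B. Activity of the pathway was not tested. Of 21 tested genes of the wider list of dorsal and Wnt genes 6 rose (28.6%) and 4 fell (19%), against 17.0% and 10.3% of all genes. In the paired fit 3 rose and 5 fell. The highest log2 fold change of this list, 3.28, was also the highest of the early zygotic list, so the lists overlap and their counts are not separate. Among 25 adhesion and guidance genes 11 rose (44%) and 0 fell, against the same shares of 17.0% and 10.3%. The chemokine gene cxcl12a rose from 3.12, 0.679 and 0.257 CPM to 22.2, 10.5 and 8.07 CPM (log2 fold change 3.34 ± 0.58, adjusted p = 1.35e-05, log2 fold change 4.82 without sphere A), and its receptor gene cxcr4a rose by 1.24 ± 0.20 (adjusted p = 2.99e-06).

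The remaining lists had medians nearer to that of all genes or few calls. Of 26 SoxB1 and neural genes 4 rose (15.4%) and 5 fell (19.2%), against 17.0% and 10.3% of all genes. Their median was -0.20, and 0.12 without sphere C. Of 34 immediate early and wound genes 9 rose (26.5%) and 1 fell (2.94%), with a median of 0.22 that was -0.01 with library totals. The rises included jun (1.17 ± 0.27, adjusted p = 0.00051) and gadd45ba (1.24 ± 0.24, adjusted p = 5.27e-05), genes of the stress response. Of 15 yolk layer genes 3 rose (20%), mttp, apoc1 and apoeb, and 0 fell.

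Several of the largest falls were of genes outside the lists. ddhd1a, a phospholipase, was at 8.74, 9.65 and 43.4 CPM and then at 2.37, 1.78 and 5.66 CPM (log2 fold change -2.64 ± 0.42, adjusted p = 2.7e-06). The kinase gene tyk2 fell from 8.79, 12.7 and 30.1 CPM to 3.03, 2.47 and 5.31 CPM (adjusted p = 2.37e-05). The transcription factor gene atf5a fell from 12.2, 19.0 and 46.1 CPM to 4.45, 5.26 and 8.12 CPM (adjusted p = 5.88e-06). Sphere C was the highest library for all 3, by more than the gap between sphere A and B. Without it the log2 fold change was -1.47 for ddhd1a, -1.56 for tyk2 (-2.25 with it) and -1.38 for atf5a (-2.11 with it), and without 30% epiboly C it was -3.30 for ddhd1a. Among falls with many counts, the vesicle coat gene sec24c went from 302, 415 and 549 CPM to 131, 159.9 and 213 CPM (log2 fold change -1.33 ± 0.14, adjusted p = 7.32e-10), and the spindle pole gene wdr62 from 397, 399 and 505 CPM to 184, 202 and 229.5 CPM (adjusted p = 1.62e-08).

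Later uninjected explants extended these courses, as means of 3 libraries. krt4 averaged 899 CPM at 30% epiboly, 3346 at 50% epiboly and 13750 at 2-somite. tbx16 averaged 673 CPM at 30% epiboly, 958 at 50% epiboly and 9.60 at 2-somite. vox averaged 154, 303 and 129.5 CPM at the same stages. Among the stages given here, krt4 was thus highest at 2-somite, while tbx16 and vox were highest at 50% epiboly. Among the fallen genes, sox19b averaged 123, 79.5 and 23.8 CPM, buc 87.0, 31.0 and 4.03 CPM, and eomesa 40.6, 17.2 and 2.13 CPM. nanog, not called between sphere and 30% epiboly, averaged 2569 CPM at 30% epiboly, 1155 at 50% epiboly and 347 at shield. Some falls did not last: ep300b averaged 200.1 CPM at 30% epiboly and 388 at 2-somite. Between 30% and 50% epiboly 2380 genes rose (12.5%) and 2361 fell (12.4%), a comparison that shares the 30% libraries.

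**Figure D5:**
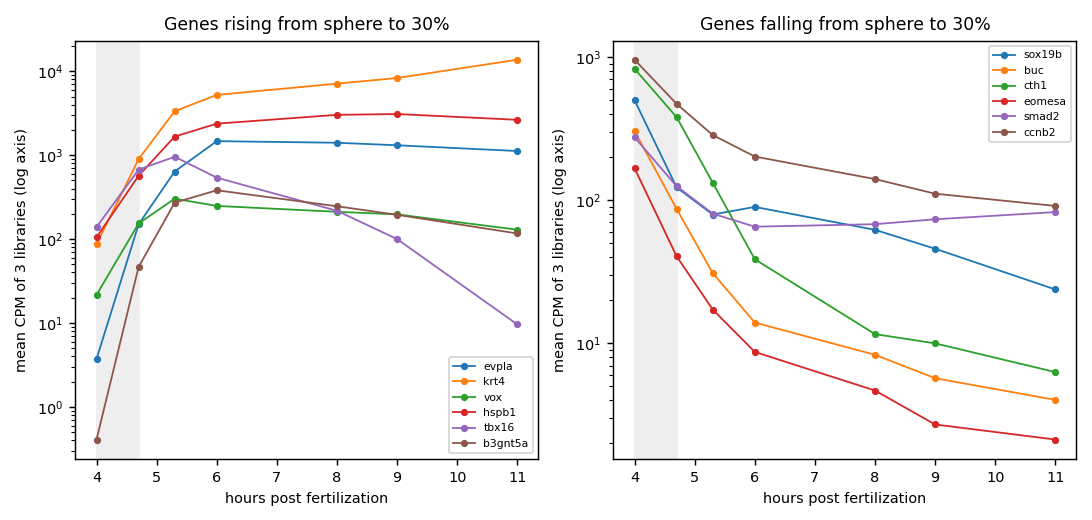
Mean CPM of 3 libraries (log axes) against hours post fertilization in uninjected explants for 6 rising and 6 falling genes, with the step from sphere to 30% epiboly shaded. krt4 reaches 13750 CPM at 2-somite, whereas buc and eomesa are at 4.03 and 2.13 CPM.

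The same step in the injected explants used no library in common with the uninjected step. In ndr2 explants 3474 genes rose (18.2%) and 2418 fell (12.7%), and in CA-acvr1b* explants 3153 rose (16.5%) and 2275 fell (11.9%). Of the genes risen in uninjected explants 81.9% also rose in ndr2 explants (76.5% of the ndr2 rises) and 79.6% in CA-acvr1b* explants (81.9% of those rises). Of the fallen genes 89.2% also fell with ndr2 (72.6% of the ndr2 falls) and 87.3% with CA-acvr1b* (75.5% of those falls). In all 3 conditions 2381 genes rose and 1627 fell. Calls in opposite directions numbered 0 for ndr2 and 2 for CA-acvr1b*, kcnh4b and osr1, which were named after their values were seen. In uninjected explants the call of kcnh4b lay at the threshold, and osr1 averaged only 0.237 CPM at sphere, near the detection floor.

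The size of the step was set side by side for genes described above. The log2 fold change of krt4 was 3.37 ± 0.68 in uninjected, 5.25 ± 0.75 in ndr2 and 5.37 ± 0.76 in CA-acvr1b* explants. For evpla it was 5.36 ± 0.67, 9.51 ± 0.88 and 10.27 ± 1.02 in the same order. For sox19b it was -2.03 ± 0.26, -2.48 ± 0.27 and -2.44 ± 0.27, and for buc -1.81 ± 0.43, -1.82 ± 0.43 and -1.78 ± 0.43. The uninjected value was the lowest for krt4 and evpla, and the 3 values of buc lay within their errors. Without sphere A the uninjected value was 5.10 for krt4 and 9.19 for evpla, so its distance from the injected values depended on that library. Tests of the difference from the uninjected step called 0 genes (0%) for either injected condition (edgeR, smallest adjusted p 0.38 for ndr2 and 0.831 for CA-acvr1b*). At an unadjusted p under 0.05 there were 689 and 521 genes, and DESeq2 called 10 and 2. Without sphere C the test called 70 genes for ndr2 and 3 for CA-acvr1b*, and without 30% epiboly A it called 4 for ndr2, evpla, hsd17b14, znf185 and kcnk1a. The progress index of the injected sphere libraries lay between -5.22 and -4.06, below that of uninjected sphere A and B. The index genes were chosen for their change in these same injected libraries, so this gap may be set in part by that choice. The part of the spread of the index in the differences between steps was not tested.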

How the data were processed

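Polyadenylated RNA of 63 explant libraries (21 groups of 3) was measured, and the authors deposited raw read counts per gene for 32057 genes. Per the submitters' processing notes, Trim Galore, STAR and featureCounts and the builds GRCz11 and danRer11 were used, and their versions and settings are not given in the sources used here. Groups were taken from the labels. The deposited counts were analysed with edgeR 4.0.16 (limma 3.58.1) in R 4.3.3 on all 63 libraries, with filterByExpr (minimum count 10, minimum total 15), TMM factors, a robust quasi-likelihood fit with 42 residual degrees of freedom and Benjamini-Hochberg adjustment at 0.05. The 19069 genes tested held 99.9693% of the counts. CPM and means were computed from the deposited counts, and 3 counts, taken as the detection floor, equal 0.146 to 0.190 CPM in the 6 libraries. The SE of a log2 fold change was derived from the test, as its absolute value divided by the square root of the F statistic. DESeq2 1.42.0, other scalings and filters, blocks and left-out libraries were alternatives, and the fit was tested on simulated data. Of 50 genes simulated at each size, 3 were recovered at 1.5-fold, 15 at 2-fold, 38 at 4-fold and 46 at 8-fold. There were 3 false calls among 18869 unchanged genes. Most simulated 2-fold changes were thus missed, so a gene not called may still have changed. The simulated libraries were independent, without shared letters. Their spread followed the trend of dispersion with level and had no part particular to a gene, so these counts need not carry over to the data.

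Same-lettered libraries of both stages deviated together from their group means (r = 0.32 for A, 0.18 for B and 0.32 for C, across genes), so the letters were used as pairs in a second fit. The labels name biological replicates but do not say what a letter shares between stages. The text names the 15 largest rises and falls and the 8 risen and fallen genes with the most counts, in part, among called genes with at least 5 CPM and no overlap, and members of the gene lists. The members and lists were chosen with earlier results of these data known.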

Additional observations from a re-analysis of the deposited data

How the results depend on the processing

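The 5215 calls (2681 at least 2-fold) became 1989 (1277) when only the 6 libraries were fitted without pairing, and 3279 without replicate B at both stages, an alternative added after seeing the data. Leaving out 1 library gave 3184 (without sphere C) to 5846 (without sphere A) calls, and 1482 to 3554 at least 2-fold. Without 30% epiboly A there were 3426 and 1728. With the replicate block, the 6 libraries gave 5903 calls, 63 libraries 5556 and the 21 uninjected libraries 4098. Of 451 called genes checked, 375 were called in the paired fit of the 6 libraries and 283 without any 1 library. The unpaired fit of the 6 libraries lost the calls of 295 genes among them. No called gene reversed, while genes that did not pass the test changed sign. DESeq2 called 5686 genes, its size factors in edgeR 5244, upper quartile factors 5333, no filter on low counts 4669 and a filter of 1 CPM in 3 libraries 5348.

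For the difference of the ndr2 step from the uninjected step, DESeq2 called 10 genes, and leaving out 1 library gave 0 to 70 (4 without 30% epiboly A). For CA-acvr1b*, DESeq2 called 2 and leaving out 1 library gave 0 to 3. The cause of these shifts was not tested. Leaving out 1 library leaves a stage with 2, whose spread is pooled with that of the other groups. Promoter windows were not run. Counts near the floor of 3 limit genes under 1 CPM.

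These sign changes were as follows. In acvr1ba (ENSDARG00000018968) the log2 fold change was -0.000563 in the 6 libraries, -0.0024 with the replicate block, -0.14 with library totals and -0.018 without replicate B at both stages. Library totals gave -0.054 for klf17 (ENSDARG00000038792), -0.0787 for mixl1 (ENSDARG00000069252) and -0.060 for cdh1 (ENSDARG00000102750). Without replicate A at both stages klf17 was at -0.10. Without replicate C at both stages mixl1 was at -0.39 and ndr2 (ENSDARG00000101279) at -0.025. Leaving out 1 library gave -1.66 to 0.31 for lft1 (ENSDARG00000019920), -0.093 to 0.34 for klf17, -0.20 to 0.32 for mixl1 and -0.52 to 1.13 for ndr2.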
